A study of Homo sapiens with 4 samples.

Results

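ETS factors are transcription factors that share a winged helix DNA-binding domain and read a GGAA core in DNA. The 10 family members described here were SPI1, FLI1, ERG, ETS1, ETS2, ELF1, ELF2, ELF4, ETV6 and GABPA, taken from the 23622 genes of the deposited table by their symbols. All 10 were listed, and 9 of them passed the filter on low values (2 or more libraries with a value of 10 or more), which kept 14120 genes in all. The libraries came from MV4-11, a human monocytic acute myeloid leukemia (AML) cell line, and RNA was sequenced from 2 control libraries (sh-NC) and 2 libraries with knockdown of the interferon regulatory factor IRF1 (sh-IRF1). The labels describe the controls as NC, genotype WT and untreated, and the other libraries as WT with IRF1 knocked down. By the study's methods the hairpins were delivered by lentivirus and the infected cells were selected with puromycin, so cells of 1 line under selection carry every comparison. The labels give no separate cultures, and p-values therefore measure only the spread between these libraries, which may be technical.

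ETS factors divide into activators and repressors, and their levels help to set blood cell identity. SPI1 encodes PU.1, the main driver of monocyte and granulocyte fates, and FLI1 and ERG act in stem cells and megakaryocytes. ETS1 and ETS2 are growth factor responsive activators, ELF1, ELF2 and ELF4 form the ELF branch, and ETV6 is a repressor that blood stem cells need. GABPA is the DNA-binding subunit of GABP, which drives housekeeping and mitochondrial genes. ELF1 and ETV6 were also placed by the study, with IRF1, RUNX2 and MEF2D, in one regulatory circuitry of AML cells, and the comparison asks what knockdown of one of these factors does to the transcripts of the ETS genes.

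The designed target sequences of the IRF1 hairpins are shown because every comparison rests on them, and the labels do not say which hairpin was used for which library.
sh-IRF1#1: gcaccagtgatctgtacaact
sh-IRF1#2: ggaaattacctgaggacatca
Each 21-base target matched transcripts of IRF1 over its whole length. The longest run shared with any transcript of the 10 ETS genes was 10 bases, between sh-IRF1#1 and ERG.

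Promoter sequences (RefSeq, GRCh38.p14) were at hand for 7 of the 10 genes, in 16 windows of 300 bases, each with 250 bases before and 50 after a transcript start. SPI1, FLI1 and ETS1 had no entry. The upstream 250 bases are shown for ETV6, which rose the most of the 10, and for 1 start of ETS2, which fell. These stretches are shown because they lie outside every annotated exon. Capitals mark the GGAA core of ETS sites, or TTCC where the core is on the other strand.
ETV6, chr12:11649424-11649673, plus strand: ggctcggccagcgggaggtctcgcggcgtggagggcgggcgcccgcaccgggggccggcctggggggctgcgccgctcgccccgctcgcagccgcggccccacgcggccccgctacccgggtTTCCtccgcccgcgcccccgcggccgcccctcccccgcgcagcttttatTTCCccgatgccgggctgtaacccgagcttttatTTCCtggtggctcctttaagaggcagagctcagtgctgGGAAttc
ETS2, chr21:38804933-38805182, plus strand: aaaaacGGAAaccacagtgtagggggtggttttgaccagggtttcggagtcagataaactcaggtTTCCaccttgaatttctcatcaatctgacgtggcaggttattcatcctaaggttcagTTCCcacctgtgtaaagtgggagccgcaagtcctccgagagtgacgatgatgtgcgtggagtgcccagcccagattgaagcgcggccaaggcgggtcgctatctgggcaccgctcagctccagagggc
The ETV6 stretch held 4 cores at a GC content of 74.4%, and the ETS2 stretch held 3 at 54.4%. In the 250 upstream bases of the 16 windows the number of cores ran from 0 to 6. Over the same bases of all 35116 windows the median was 3, and 92.7% held at least 1.

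Longer motifs were searched on both strands of the 300-base windows. The GABP-type site CCGGAAGT was found in 4.14% of all windows, in 7.74% of the windows of the genes tested here, and in 1 of the 16 of the ETS genes, that of GABPA itself, at 67 bases before the start. The PU.1-type site GAGGAAGT was found in 2.59% of all windows, in 2.85% of those of tested genes, and in 1 of the 16, that of a second start of ETS2, just after that start. Both sites are shown in 30 bases, with the site in capitals on the strand opposite to the spelled motif.
GABPA, chr21:25734894-25734923, plus strand: acctccgctctACTTCCGGccctggctccg
ETS2, chr21:38805922-38805951, plus strand: acggcccggttACTTCCTCcagagactgac
An IRF-type pair of GAAA repeats, GAAANNGAAA, occurred in 3.57% of all windows and in 2.998% of those of tested genes. The ETS-IRF composite GGAANNGAAA, which overlaps it in part, occurred in 2.82% and 2.56%. Neither string was found in the 16 windows of the ETS genes. A match describes letters only, and no binding was measured in these files.

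Library depth was even, at 17635908 to 18695337 reads assigned to genes per library, and mitochondrial genes took 3.92 to 4.51% of them. IRF1 was measured first as the check of the labels. Its normalized counts were 785 and 738 in sh-NC and 430 and 432 in sh-IRF1, so both knockdown libraries lay below both controls at 56.6% of the control mean (log2 fold change -0.82, limma adjusted p = 1.69e-10). Antisense transcripts cover 22.9% of the exonic bases of IRF1, and the antisense gene IRF1-AS1, which shares most of them, had 4.46% as many reads. All 10 markers of a monocytic AML line were listed in the table. Not listed were 3 of 5 erythroid, 2 of 5 megakaryocyte (PF4, PPBP), 3 of 4 T cell and 1 of 4 B cell markers. The monocytic marker CD14 had fewer reads in every library than the erythroid marker EPOR and the B cell marker CD79A. Being listed alone thus does not tell the lineages apart.

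After IRF1 knockdown, SPI1 and ETV6 rose and FLI1, ETS2, ELF1 and GABPA fell. ETS1, ELF2 and ELF4 did not pass the test, and ERG was too low to test. Thus 2 of the 9 tested genes were higher and 4 were lower at a limma adjusted p under 0.05, against 20.3% of all 14120 genes called higher and 21.9% called lower. The median log2 fold change of the 9 genes was -0.13, beside -0.0019 over all genes tested. With a log2 fold change beyond 0.5 asked for as well, none of the 9 was higher and 1, FLI1, was lower. The shares of all genes were 8.27% and 7.56%. In bulk RNA, a change in the share of cells that express a gene and a change in RNA per cell cannot be told apart.

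**Figure D1:**
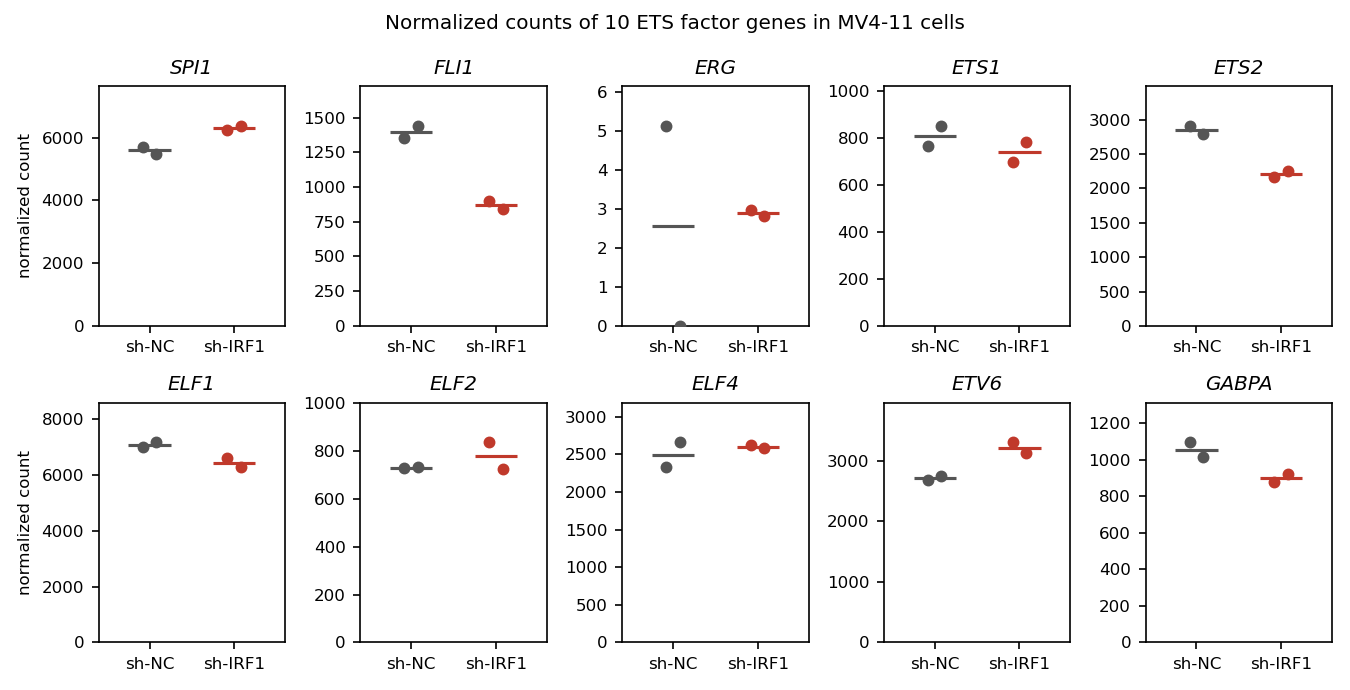
Normalized counts of the 10 ETS factor genes (vertical axis, starting at 0, with its own range per gene) in the 2 sh-NC libraries (grey points) and the 2 sh-IRF1 libraries (red points), with horizontal lines at the group means. The points of the groups do not overlap for SPI1, ETV6, FLI1, ETS2, ELF1 and GABPA, and they overlap for ERG, ETS1, ELF2 and ELF4. The share of all genes whose groups separate was not counted, and 2 libraries against 2 cannot give an exact permutation p under 0.333.

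SPI1 (ENSG00000066336, chr11:47354860-47378547, minus strand, GRCh38) had normalized counts of 5719 and 5472 in sh-NC and 6247 and 6376 in sh-IRF1. Both knockdown libraries were above both controls. The gene rose to 113% of its control mean, from 5596 ± 174 (SD, n = 2) to 6311 ± 91.4 (SD, n = 2) normalized counts (log2 fold change 0.17, SE 0.035, limma adjusted p = 6.46e-05). With the 95% interval of the log2 fold change at 0.10 to 0.25, a rise beyond 0.5 lay outside it.

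The repressor gene ETV6 (ENSG00000139083, chr12:11649674-11895377, plus strand) rose the most of the 9. It had normalized counts of 2683 and 2743 in sh-NC and 3301 and 3134 in sh-IRF1. All knockdown values were above all control values, at 119% of the control mean (log2 fold change 0.25, SE 0.044, limma adjusted p = 1.01e-05). The tested genes nearest to ETV6 were SMIM10L1 and MANSC1, at 473657 and 430678 bases from it, with log2 fold changes of -0.18 and 0.82 (limma adjusted p = 0.26 and 0.366). Neither of them passed the test.

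FLI1 (ENSG00000151702, chr11:128686535-128813267, plus strand) moved the most of the 9 tested genes of the set. Its normalized counts were 1355 and 1439 in sh-NC and 898 and 841 in sh-IRF1. The fall left 62.3% of the control mean (log2 fold change -0.68, SE 0.067, limma adjusted p = 6.78e-12), and the interval of -0.82 to -0.55 kept clear of -0.5. Antisense transcripts share 4.10% of its exonic bases, and the gene that holds most of these had 0.0442% as many reads. ETS1 (ENSG00000134954), the closest relative of ETS2, lies 98976 bases from FLI1 on the same chromosome. It had 766 and 849 normalized counts in sh-NC and 697 and 783 in sh-IRF1. The ETS1 groups overlapped, and its log2 fold change of -0.13 with an interval of -0.29 to 0.04 did not pass the test (limma adjusted p = 0.216).

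Chromosome 21 carries the other neighbouring pair, ERG and ETS2, with 143402 bases between them. For ETS2 (ENSG00000157557, chr21:38805183-38824955, plus strand) the normalized counts were 2909 and 2786 in sh-NC and 2162 and 2252 in sh-IRF1. The groups were well apart, and ETS2 fell to 77.5% of its control mean (log2 fold change -0.37, SE 0.047, limma adjusted p = 8.38e-09). ERG (ENSG00000157554), a stem cell factor and a common fusion partner in cancer, was barely detected, with 5 and 0 reads in sh-NC and 3 and 3 in sh-IRF1. At a floor of 3 reads per library, no difference in ERG was detectable at this depth. Of the chromosome 11 pair FLI1 was called and ETS1 was not, and of the chromosome 21 pair only ETS2 could be tested. Both FLI1 and ETS2 fell.

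Of the ELF branch, ELF1 fell and the other two did not pass the test. ELF1 (ENSG00000120690, chr13:40931924-41061440, minus strand), an activator expressed across blood lineages, had normalized counts of 7002 and 7172 in sh-NC and 6598 and 6298 in sh-IRF1. This put the knockdown at 91.0% of the control mean (log2 fold change -0.14, SE 0.034, limma adjusted p = 9.62e-04). The call rested in part on 1 library, since without sh-IRF1 replicate 2 the log2 fold change was -0.10 and the limma adjusted p was 0.0768. WBP4, which lies 68 bases from ELF1, had a log2 fold change of -0.10 (limma adjusted p = 0.621).

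ELF4 (ENSG00000102034), known for limiting proliferation of lymphocytes and for interferon responses, had normalized counts of 2335 and 2659 in sh-NC and 2620 and 2585 in sh-IRF1. Both knockdown values fell between the control values. Its log2 fold change was 0.06 with an interval of -0.04 to 0.16 (limma adjusted p = 0.332), and the value turned on the controls. Without sh-NC replicate 2 it was 0.16 with a limma adjusted p of 0.0187, and without sh-NC replicate 1 it was -0.03. ELF2 (ENSG00000109381) had 730 and 733 normalized counts in sh-NC and 837 and 727 in sh-IRF1. Only sh-IRF1 replicate 1 was above the controls, and the log2 fold change of 0.09 with an interval of -0.07 to 0.26 did not pass the test (limma adjusted p = 0.389). Without that library it was -0.0094.

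GABPA (ENSG00000154727, chr21:25734570-25772460, plus strand) had normalized counts of 1096 and 1016 in sh-NC and 881 and 924 in sh-IRF1. The groups did not overlap and GABPA fell to 85.5% of the control mean (log2 fold change -0.23, SE 0.071, limma adjusted p = 0.00845). The call was lost without sh-NC replicate 1 (-0.17, limma adjusted p = 0.11) and without sh-IRF1 replicate 1 (-0.19, limma adjusted p = 0.0976). Of its exonic bases, 12.0% are shared with other genes on the opposite strand, chiefly ATP5PF, a subunit gene of the mitochondrial ATP synthase. ATP5PF had 76.5% as many reads as GABPA and a log2 fold change of -0.18 (limma adjusted p = 0.0743), and without a stated strand setting the reads of these shared bases cannot be told apart. A named pseudogene of GABPA was also listed, with 2.09% as many reads.

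**Figure D2:**
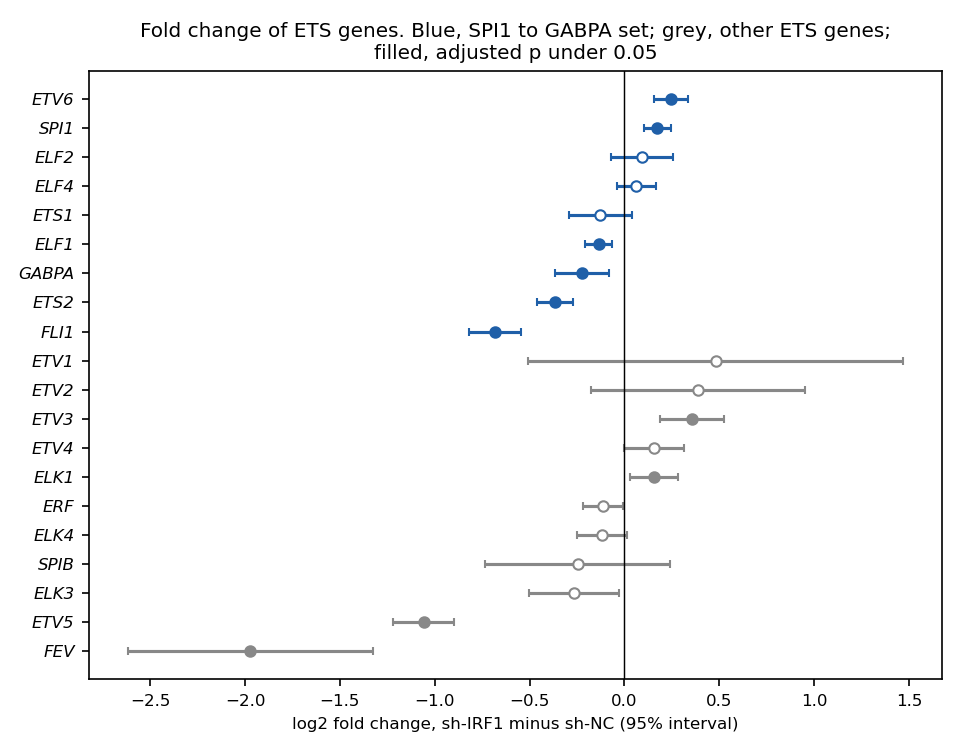
Log2 fold changes (sh-IRF1 minus sh-NC, horizontal axis) with 95% intervals from limma for the 9 tested genes of the set (blue) and the 11 other ETS genes that could be tested (grey), ordered by size within each colour. Filled points passed an adjusted p of 0.05, with FLI1 the lowest blue point at -0.68 and ETV5 and FEV the lowest grey points at -1.06 and -1.97.

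Levels were compared between genes per length, as RPKM (reads per kilobase of exon, scaled to library size). In sh-NC, SPI1 led with a mean of 151 RPKM, followed by ELF1 at 88.1, ETS2 at 31.6, ELF4 at 26.3 and ETV6 at 20.7. GABPA at 10.2, FLI1 at 9.61, ETS1 at 6.24 and ELF2 at 4.72 formed a lower tier, and ERG was at 0.019 RPKM. The ranges of GABPA and FLI1 overlapped, and those of the other neighbours in this order did not.

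In sh-IRF1, SPI1 at 176 RPKM and ELF1 at 82.7 again came first, but ELF4 at 28.3 and ETV6 at 25.3 stood before ETS2 at 25.2. Below them came GABPA at 8.95, FLI1 at 6.17, ETS1 at 5.90 and ELF2 at 5.20, and ERG was at 0.022 RPKM. ETS2 thus held rank 3 in sh-NC and rank 5 in sh-IRF1, where its mean and that of ETV6 were close. Its range in sh-IRF1, 24.7 to 25.8 RPKM, overlapped that of ETV6 and lay below the 28.2 to 28.4 RPKM of ELF4, and the ranges of FLI1 and ETS1 and of ETS1 and ELF2 also overlapped.

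As a share of the summed RPKM of the 10 genes, SPI1 took 44.3 and 42.5% in sh-NC and 47.8 and 49.0% in sh-IRF1. ELF1 took 24.9 and 25.6% in sh-NC against 23.2 and 22.2% in sh-IRF1. FLI1 took 2.67 and 2.84% against 1.75 and 1.64%. The groups did not overlap for these 3 genes, but 2 libraries against 2 cannot give an exact permutation p under 0.333, so the shares are a description. The sum itself was 350 and 348 RPKM in sh-NC and 364 and 364 RPKM in sh-IRF1. With the longest transcript as the length of each gene, the share of SPI1 was 48.3% for the controls and 53.5% for the knockdown.

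Likeness of pattern was measured as the root-mean-square distance in log2(RPKM + 1) over the 4 libraries, across 14054 genes, for SPI1, ELF1 and ETV6. GSTP1 and RPS2P46 were near to SPI1, at distances of 0.0434 and 0.0677. RPS2P46 is a ribosomal protein pseudogene whose reads may come from its parent. Nearest to ELF1 were PRDX2, STOML2 and EIF2S3, at 0.0269, 0.0303 and 0.0383, none of which passed the test that ELF1 passed. RABL6 and TMEM214 were near to ETV6, at 0.0343 and 0.0379. Their log2 fold changes were 0.22 and 0.18 (limma adjusted p = 6.54e-06 and 0.00461). The distance takes in the difference between the groups, so a direction shared with ETV6 follows in part from the choice.

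The rest of the ETS family numbered 18 genes, of which 13 were listed and 11 tested. Of these, 2 were higher, 2 lower and 7 without a call, with a median log2 fold change of -0.11. The shares called over all genes tested were 20.3% higher and 21.9% lower. ETV5, of the PEA3 branch that follows receptor tyrosine kinase signalling, had normalized counts of 1065 and 1104 in sh-NC and 539 and 501 in sh-IRF1 (log2 fold change -1.06, limma adjusted p = 1.61e-15). FEV, a factor of serotonergic neurons and the nearest relative of FLI1 and ERG, had 78.0 and 92.4 in sh-NC and 17.9 and 24.4 in sh-IRF1 (-1.97, limma adjusted p = 1.42e-06). Both fell further than FLI1 on the log2 scale, and FEV did so at a far lower level. Per length the most abundant of the other genes was ERF, a repressor, at 33.3 RPKM in sh-NC and 31.8 RPKM in sh-IRF1 (log2 fold change -0.11, limma adjusted p = 0.0711).

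The genes called higher in this group, named after their values were seen, were ETV3 and ELK1. ETV3, a repressor of macrophage proliferation, had 583 and 616 normalized counts in sh-NC and 768 and 767 in sh-IRF1 (log2 fold change 0.36, limma adjusted p = 4.24e-04). ELK1, a partner of serum response factor, had 1256 and 1178 in sh-NC and 1395 and 1314 in sh-IRF1 (0.15, limma adjusted p = 0.0441), and it lost its call in 5 of the 15 alternatives, 3 of which left out sh-NC replicate 2, sh-IRF1 replicate 1 or sh-IRF1 replicate 2 (limma adjusted p = 0.261, 0.309 and 0.0608).

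The circuitry factors RUNX2 and MEF2D were also measured. MEF2D was at 10732 and 10909 normalized counts in sh-NC and 11464 and 11468 in sh-IRF1 (log2 fold change 0.08, limma adjusted p = 0.0169). That call was lost without sh-NC replicate 1, sh-IRF1 replicate 1 or sh-IRF1 replicate 2, at limma adjusted p values of 0.0614, 0.107 and 0.113. RUNX2 had 1896 and 1818 in sh-NC and 1795 and 1940 in sh-IRF1 (0.0075, limma adjusted p = 0.929). Beside them ETV6 was at 0.25 and ELF1 at -0.14, so of the circuitry's ETS factors ETV6 rose and ELF1 fell. The study reported for this cell line that knockdown of any circuitry factor lowered the others, in mRNA and in protein. In these libraries ELF1 alone of the other members was called lower. ETV6 and MEF2D were called higher, and RUNX2 had no call. The reason for this difference from the study's report was not tested.

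Partners and cofactors gave 4 genes higher, 5 lower and 8 without a call among 17 tested of 19. Their median log2 fold change was -0.01, and over all genes tested 20.3% were called higher and 21.9% lower. JUN, which PU.1 uses as a coactivator, rose from 282 and 262 normalized counts in sh-NC to 1053 and 1082 in sh-IRF1 (log2 fold change 1.97, limma adjusted p = 1.08e-22). It was the 1 partner gene beyond 0.5 in either direction. CEBPA, the myeloid factor that works beside PU.1, was the most abundant per length, at 186 RPKM in sh-NC and 178 RPKM in sh-IRF1. Its log2 fold change was -0.11 (limma adjusted p = 0.00294), but the call was lost with total-read scaling (0.0713) and without sh-IRF1 replicate 1 (0.0913). An antisense gene covers 43.9% of its exonic bases.

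The beta subunits that pair with GABPA in the GABP complex, named after their values were seen, went opposite ways. GABPB1 had 637 and 615 normalized counts in sh-NC and 488 and 492 in sh-IRF1 (log2 fold change -0.35, limma adjusted p = 0.00146). GABPB2 had 463 and 468 in sh-NC and 608 and 550 in sh-IRF1 (0.31, limma adjusted p = 0.00677), a call lost without sh-IRF1 replicate 1 (limma adjusted p = 0.127). GABPB1 shares 7.46% of its exonic bases with genes on the other strand, chiefly GABPB1-AS1, which had 136% as many reads.

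Among 7 genes known to be driven by GABP, 1 was higher, 3 were lower and 3 had no call. Their median log2 fold change was -0.12, and 20.3% of all genes tested were called higher and 21.9% lower. TFB2M, a mitochondrial transcription factor, had 589 and 653 normalized counts in sh-NC and 405 and 388 in sh-IRF1 (log2 fold change -0.64, limma adjusted p = 3.60e-07). COX4I1, a subunit of cytochrome c oxidase and the most abundant of the 7 per length, had 5299 and 4895 in sh-NC and 4289 and 4185 in sh-IRF1 (-0.27, limma adjusted p = 2.23e-07). Both fell, while SKP2, named after its values were seen, was the 1 gene called higher (0.21, limma adjusted p = 2.08e-04). A link of these genes to GABPA was not tested.

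Of 25 myeloid genes known to carry PU.1 sites, 24 were tested and 10 were higher, 10 lower and 4 without a call, with a median log2 fold change of 0.05. Over all genes tested 20.3% were called higher and 21.9% lower, so calls were more frequent in this list in both directions. The 24 genes thus took no common direction beside a SPI1 that rose by 0.17 on the log2 scale. Beyond 0.5, 4 were higher and 5 lower, against 8.27% and 7.56% of all genes tested. LYZ, which encodes lysozyme, rose from 1824 and 1785 normalized counts in sh-NC to 3276 and 3218 in sh-IRF1 (log2 fold change 0.85, limma adjusted p = 3.83e-20), with 34.7% of its exonic bases also covered by other genes, on the opposite strand. TYROBP, the signalling adaptor DAP12, rose from 1717 and 1621 to 2512 and 2460 (0.58, limma adjusted p = 3.27e-13). ITGAM, the CD11b integrin chain, was at 0.64 (limma adjusted p = 0.0019), and it lost its call without sh-NC replicate 1 (log2 fold change 0.39, limma adjusted p = 0.0785) and without sh-IRF1 replicate 1 (0.53, limma adjusted p = 0.0772).

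In the other direction, MPO, the granule enzyme myeloperoxidase, fell from 477 and 443 normalized counts in sh-NC to 185 and 158 in sh-IRF1 (log2 fold change -1.42, limma adjusted p = 7.78e-13). CYBB, the catalytic subunit of the phagocyte oxidase, fell from 163 and 147 to 57.7 and 45.9 (-1.57, limma adjusted p = 9.70e-08). On the log2 scale CYBB and MPO fell further than any of the ETS factors of the set. FCGR1A, a high-affinity IgG receptor with near-identical copies that may share its reads, was at -0.57, and IL7R, the interleukin 7 receptor chain, was also at -0.57.

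CD14, the monocyte co-receptor for lipopolysaccharide, had 38.0 and 42.1 normalized counts in sh-NC and 10.9 and 1.87 in sh-IRF1. Its log2 fold change of -2.81 (limma adjusted p = 8.90e-05) rested on few reads, and it was -3.83 without sh-IRF1 replicate 1 and -1.78 without sh-IRF1 replicate 2. ELANE, the neutrophil elastase gene, was the most abundant of the list per length, at 535 RPKM in sh-NC and 606 RPKM in sh-IRF1 (log2 fold change 0.13, limma adjusted p = 3.48e-04).

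**Figure D3:**
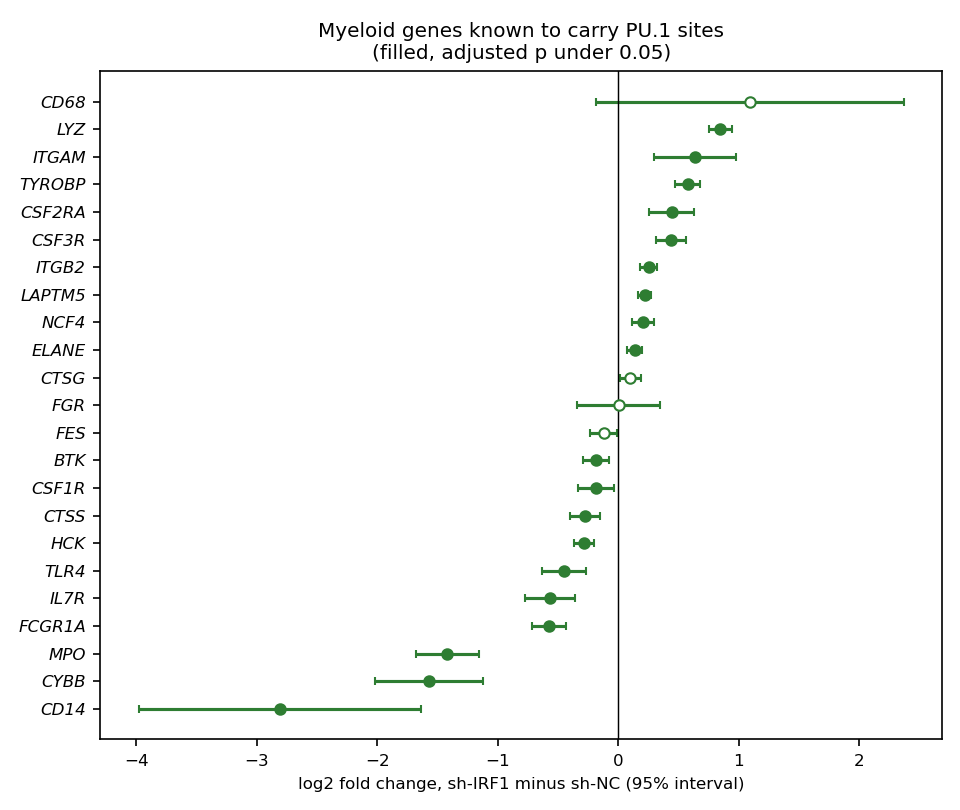
Log2 fold changes (sh-IRF1 minus sh-NC, horizontal axis) with 95% intervals from limma for 23 of the tested myeloid genes known to carry PU.1 sites, ordered by size, with filled points for an adjusted p under 0.05. The 9 genes drawn as higher and the 10 drawn as lower spread to both sides of 0, from CD14 at -2.81 to CD68, which was not called, at 1.09.

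Markers of other blood lineages moved beside these results. The summed normalized count of the megakaryocyte markers, a lineage in which FLI1 acts, was 121 and 132 in sh-NC and 75.6 and 59.0 in sh-IRF1 (3 of 5 listed, GP9 at 0 in 3 of the libraries). The summed B cell markers were at 88.2 and 120 in sh-NC and 254 and 305 in sh-IRF1 (3 of 4 listed), the erythroid markers at 448 and 402 against 467 and 463 (2 of 5 listed), and the T cell markers at 2.05 and 6.16 against 0 and 0 (1 of 4 listed). Their part in the ETS results was not tested.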

How the data were processed

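RNA-seq of MV4-11 cells, 2 sh-NC and 2 sh-IRF1 libraries, was taken from 1 deposited table. Its values are a normalized signal that the authors made by dividing each gene's reads by 1 size factor per library. The submitters' processing notes name HISAT2 2.0.5 and hg38, the study's methods name FPKM and DESeq2, and the counting tool, annotation and strand setting are not given in the sources used here. Dividing by 1 step per library gave whole numbers within 0.01 of a read (100% of values, largest distance 4.43e-05 of a read), so reads were recovered, and totals ranged from 17635908 to 18695337. The table had 0 columns of other samples. Replicates differed by more than counting noise (chi-square per gene of 2.52 for sh-NC, 2.37 for sh-IRF1, where 1 is counting noise alone).

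Genes at 10 or more in 2 or more libraries (14120 of 23622) were tested with limma 3.58.1 in R 4.3.3 on log2(value + 1), with a variance trend and robust shrinkage. Fold changes are on that scale, where the added 1 shrinks changes of low genes. They are not always the smaller estimates, since CD14 was at -2.81, beside -2.64 with edgeR and -2.66 with DESeq2. Benjamini-Hochberg adjustment ran over all genes tested. Normalized count means the deposited value. RPKM used the recovered reads and the exon union of GENCODE 44, which held 23456 of the identifiers. Alternatives were 3 other scalings, 2 filters, 2 pseudocounts, no robust shrinkage, edgeR 4.0.16 and DESeq2 1.42.0 on recovered reads, a replicate block, and leaving out each library. On simulated counts with 200 genes changed by a log2 fold of 1, limma recovered 200 and called 13 unchanged genes. Smaller changes, as in all called ETS factors of the set, were not simulated.

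The members, gene lists and tests were chosen with earlier results of these data known. Named by rule were the 10 members, from each list the genes with an adjusted p under 0.05 and a log2 fold change beyond 0.5 (at most 8 by p) and the most abundant gene per length, IRF1, RUNX2, MEF2D, the 3 genes nearest in pattern to SPI1, ELF1 and ETV6, and the tested genes next to a member, of which those of interest are given. A few genes of these lists are not reported here.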

Additional observations from a re-analysis of the deposited data

How the results depend on the processing

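Each gene had 15 alternatives. The counts of ETS factors called (2 higher and 4 lower, and 0 and 1 beyond a log2 fold change of 0.5) stayed within 1.5 times of these values under each of them, and FLI1, ETS2, ETV6 and SPI1 kept their direction and call in all 15, at -0.73 to -0.64, -0.40 to -0.32, 0.21 to 0.29 and 0.14 to 0.22. Leaving out 1 library at a time, the set gave 2 to 3 higher and 3 to 4 lower, the other ETS genes 1 to 2 higher and 2 to 4 lower, and the circuitry factors 0 to 1 higher. The other ETS genes gave 1 higher, not 2, with no filter and with DESeq2 (ELK1 lost its call). Leaving out 1 library gave log2 fold changes of -0.0094 to 0.1926 for ELF2, -0.0311 to 0.1566 for ELF4 and -0.0482 to 0.0631 for RUNX2. The sign turned for ELF2 without sh-IRF1 replicate 1 (-0.0094), ELF4 without sh-NC replicate 1 (-0.0311), and RUNX2 without sh-NC replicate 2 (-0.0227) and without sh-IRF1 replicate 2 (-0.0482), none of which was called, while ELF4 was called without sh-NC replicate 2. The causes were not tested. With the longest transcript as length, shares in sh-NC and sh-IRF1 were 48.3 and 53.5% for SPI1, 22.9 and 20.4% for ELF1, and 3.09 and 1.89% for FLI1.

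The labels do not say whether same-numbered libraries were made together. Their deviations correlated at -0.015, so no shared effect was seen, but this cannot tell whether they were paired. A replicate block gave 2 higher and 4 lower ETS factors, as without it, and changed the PU.1-linked genes from 10 to 11 higher. Genes near 10 reads, such as CD14 in sh-IRF1, and ERG below that, are limited by depth, and 2 libraries per group limit every test.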
